A study of Mus musculus with 12 samples.

Results

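The Hox genes are homeobox transcription factor genes that lie in 4 clusters, HoxA to HoxD, and 11 of the 39 protein-coding Hox genes annotated in the mouse had a row in at least 1 of the 3 tables deposited for RNA-seq of C2C12 cells. Members were taken by name and type, as rows whose type was protein-coding and whose name was Hox followed by a cluster letter from a to d and a number. The tables together held 10289 genes, of which 9266 were protein-coding. C2C12 cells are mouse myoblasts, an established line kept dividing in growth medium (GM), which fuse into myotubes when serum is withdrawn. Puromycin-selected stable lines, made with lentivirus, carried GFP, mouse METTL3 or mouse METTL14 behind a CMV promoter in the vector. METTL3 and METTL14 form the core of the complex that writes N6-methyladenosine (m6A) on RNA, and GFP is the negative control. There were 4 RNA-seq groups with 2 libraries each, namely GFP-overexpressing cells in GM (day 0), GFP-overexpressing cells after 4 days in differentiation medium (D4, day 4), METTL3-overexpressing cells in GM (day 0) and METTL14-overexpressing cells in GM (day 0). For the METTL14 libraries the titles give day 0 but the time point field gives day 4, and the titles were followed. Whether a line was a single clone, and whether 2 libraries of a group came from separate cultures, is not given in the sources used here. The series also holds 4 m6A immunoprecipitation and input libraries, which were not analysed here.

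Each table was made for 1 comparison, D4 with GM in GFP cells, METTL3 with GFP in GM, or METTL14 with GFP in GM, and holds only genes that passed the authors' limit on the false discovery rate (0.05). A gene is called listed below when a table has a row for it. The level given for a gene is the authors' mean normalized count, a mean over libraries after scaling for library size, and it was the same in every table that held the gene (largest relative difference 4.77e-10 over 1746 genes held by more than 1 table). It has no spread and no value per library or group, so it says nothing about the direction of a change. The fold changes and p-values in the tables are the authors' own comparisons and were not used. A gene absent from a table has no value there, and its absence does not show that it was unchanged or silent. All 3 comparisons used the GFP libraries in GM. Of the overexpressed genes, Mettl3 was listed for METTL3 only, and Mettl14 for METTL14 and also for D4. A listing has no direction, so neither these genes nor the markers below can show that a label is right. All of 6 myotube markers were listed for D4, 1 for METTL3 (Tnnt3) and 2 for METTL14 (Acta1 and Tnnt3). Of 5 myoblast markers, 4 were listed for D4, 5 for METTL3 and 4 for METTL14, so that myogenic genes were listed in the same comparisons as the Hox genes, and their part in the Hox listings was not tested. None of 5 markers of fat, liver, epithelium, blood or endothelium was listed. Of all annotated protein-coding genes, 40.1% were listed for D4, 7.80% for METTL3, 4.91% for METTL14 and 42.2% in any table. Of the myoblast markers, Pax7, a satellite cell factor, had a mean normalized count of only 21.7.

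Hox genes are numbered 1 to 13 along a cluster, and genes with the same number in different clusters are paralogs that descend from the same ancestral gene. Low numbers are expressed towards the head of the embryo and high numbers towards the tail and the tips of the limbs. A cell line grown from adult tissue often retains the Hox genes of the body region it came from, and Hox proteins bind DNA together with cofactors of the TALE class.

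In the comparison of D4 with GM, 10 Hox genes were listed, which is 25.6% of the 39. The background was 40.1%, the share of all 21951 annotated protein-coding genes, expressed in these cells or not, that this table listed. These were Hoxa2, Hoxa9, Hoxa11 and Hoxa13 of HoxA, Hoxb5 and Hoxb6 of HoxB, and Hoxc4, Hoxc6, Hoxc10 and Hoxc11 of HoxC. The METTL3 table listed Hoxa11 and Hoxa13, 2 genes or 5.13%, beside a background of 7.80%. Listed for METTL14 were Hoxa13, Hoxb5, Hoxb6 and Hoxb9, 4 genes or 10.3%, beside 4.91%. Over the 3 tables together 28.2% of the Hox genes were listed, beside 42.2% of all protein-coding genes. Neighbours within a cluster share a chromosomal region and are not independent of each other, so no test was made of these shares, and the difference between the METTL3 and METTL14 counts was not tested.

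**Figure D1:**
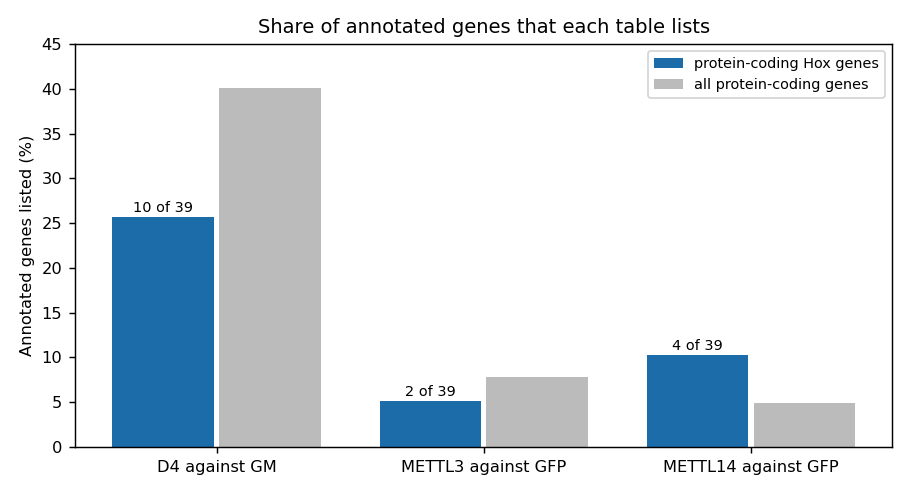
Bars give the percentage of annotated genes that each table lists, for the 39 protein-coding Hox genes (blue, with the count above) and for all 21951 protein-coding genes (grey). The Hox share was 25.6% beside 40.1% for D4 against GM, 5.13% beside 7.80% for METTL3 and 10.3% beside 4.91% for METTL14.

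By cluster, 4 of 11 HoxA genes (36.4%) and 3 of 10 HoxB genes (30%) were listed in any table. For HoxC it was 4 of 9 genes (44.4%) and for HoxD 0 of 9, beside 42.2% of all protein-coding genes. The HoxD genes, Hoxd1, Hoxd3, Hoxd4 and Hoxd8 to Hoxd13, thus had no value at all in these files. The tables that held each gene are given side by side, since the comparisons share the GFP libraries in GM. The 4 listed HoxC genes were listed for D4 only, as were 78.4% of all protein-coding genes listed in any table. Of the 3 listed HoxB genes, Hoxb5 and Hoxb6 were listed for D4 and METTL14 and Hoxb9 for METTL14 only. Among all protein-coding genes listed in any table, these patterns held 2.25% and 0.821%. Differences between the clusters were not tested. The HoxA genes Hoxa2 and Hoxa9 were listed for D4 only, Hoxa11 for D4 and METTL3, and Hoxa13 for all of the comparisons. The pattern of Hoxa11 held 7.63% of all listed protein-coding genes and that of Hoxa13 6.85%. By position number, 2 of 12 genes at positions 1 to 4 (16.7%) and 3 of 11 at positions 5 to 8 (27.3%) were listed. At positions 9 to 13, the posterior end, 6 of 16 (37.5%) were listed. Each of these shares was below the 42.2% of all protein-coding genes, and differences between positions were not tested. No gene at positions 1, 3, 7, 8 or 12 was listed. Position 6 (Hoxb6 and Hoxc6), position 9 (Hoxa9 and Hoxb9) and position 11 (Hoxa11 and Hoxc11) each had 2 listed paralogs, and no position had more.

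**Figure D2:**
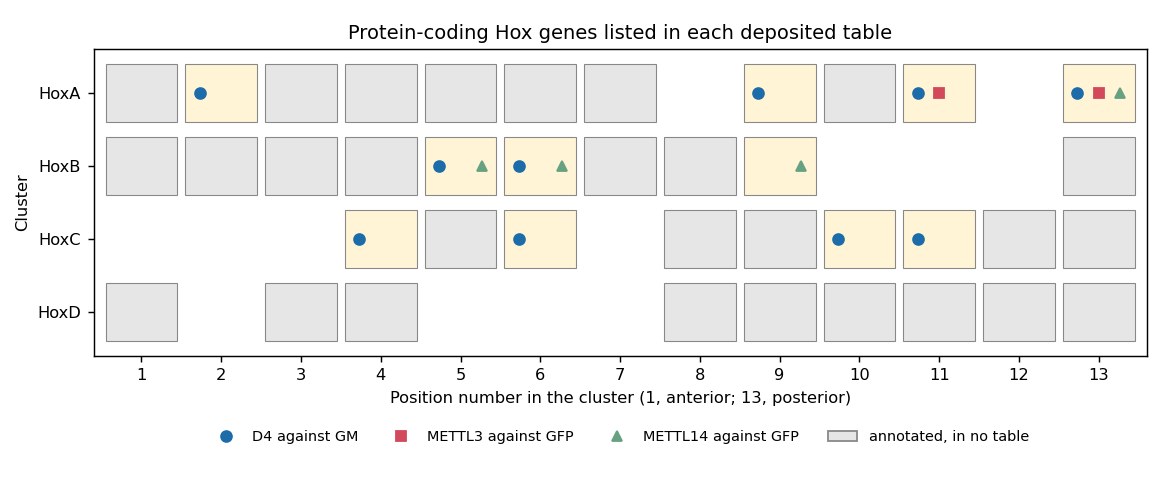
Each tile is an annotated protein-coding Hox gene, by cluster (rows) and position number (columns); yellow tiles are listed in at least 1 table, grey tiles in none, and markers show in which tables. All HoxD tiles are grey, HoxC has markers for D4 alone, and Hoxa13 is the only tile with all of the markers.

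The sequences upstream of listed members are shown because the members had unlike listing patterns in 1 cluster, from Hoxa13, listed in all of the tables, to Hoxa2, listed in 1. The RefSeq promoter table (GRCm38.p6) held 22 of the 39 Hox genes and 5 of the 11 listed ones. In 3 of these, Hoxa13, Hoxa11 and Hoxa2, the RefSeq start lay next to the end of the gene in the GENCODE annotation, and the 250 bases before it are printed 5′ to 3′ on the minus strand of chromosome 6. Hoxa13 is at chr6:52260881-52261130, Hoxa11 at chr6:52245811-52246060 and Hoxa2 at chr6:52164832-52165081. Capitals mark the E-box CANNTG, the kind of site that myogenic bHLH factors such as MyoD bind, and the CCAAT box, both searched on both strands.
Hoxa13: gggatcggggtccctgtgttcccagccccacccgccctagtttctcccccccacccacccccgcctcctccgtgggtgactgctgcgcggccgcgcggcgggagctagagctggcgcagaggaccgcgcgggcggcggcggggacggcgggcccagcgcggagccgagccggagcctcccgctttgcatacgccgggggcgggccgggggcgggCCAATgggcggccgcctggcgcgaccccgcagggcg
Hoxa11: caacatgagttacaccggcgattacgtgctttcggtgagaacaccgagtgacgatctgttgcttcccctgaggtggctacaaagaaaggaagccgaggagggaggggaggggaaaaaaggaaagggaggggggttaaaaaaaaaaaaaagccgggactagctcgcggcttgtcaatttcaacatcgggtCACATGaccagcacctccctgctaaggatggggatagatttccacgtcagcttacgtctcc
Hoxa2: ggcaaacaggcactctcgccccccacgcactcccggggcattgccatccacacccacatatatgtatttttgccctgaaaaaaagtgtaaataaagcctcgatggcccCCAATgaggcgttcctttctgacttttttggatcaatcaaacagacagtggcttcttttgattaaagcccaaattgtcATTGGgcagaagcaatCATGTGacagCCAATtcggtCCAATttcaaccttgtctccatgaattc
The Hoxa13 stretch had no E-box and 1 CCAAT box, that of Hoxa11 had 1 E-box and no CCAAT box, and that of Hoxa2 had 1 E-box and 4 CCAAT boxes. The E-box was in 66.2% and the CCAAT box in 33.8% of the 32851 windows of the same length in the RefSeq table, so that a match of either is common. Of the 24 windows of Hox genes, listed or not, 17 had an E-box and 14 a CCAAT box. The stretches were unlike in base composition. Hoxa13 had a GC content of 80.0% with 35 CpG dinucleotides, Hoxa11 52.0% with 13 and Hoxa2 46.4% with 6, where the median window of the table had 6 CpG. Unlisted Hox genes varied as well, for example Hoxd13 (74.4% with 31) and Hoxd8 (44.4% with 6). A relation between these sequences and the listings was not tested.

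Levels were compared between genes per kb of annotated exons, because a longer transcript collects more reads. They differed widely among the listed members. Per kb of exons, HoxC genes held the 3 highest places and HoxB genes the 3 lowest, although the highest HoxB gene, Hoxb6, was within 1.01-fold of Hoxa13. Per kb of coding sequence Hoxa9 moved above Hoxc11, and Hoxb6 above Hoxa2 and Hoxa13. The difference was 175-fold between Hoxc10, the highest, and Hoxb9, the lowest. Of the summed level of the 11 genes, 80.5% was from HoxC, 18.4% from HoxA and 1.12% from HoxB per kb of exons, and 68.0%, 30.7% and 1.27% per kb of coding sequence. The order and the span are those of the mean pooled over libraries, and may differ within a group. Of the 8 RNA-seq libraries 6 were in GM. The mean was the same in every table that held a gene, so the 3 comparisons shared 1 set of libraries for it. Which libraries made up that set is not stated in the sources used here. These are levels of listed genes only, and an unlisted gene may have been expressed at any level.

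Hoxc10, a posterior gene used in lumbar and hindlimb patterning (ENSMUSG00000022484, chromosome 15, 102966796 to 102971893), had a mean normalized count of 891 and a level of 467 per kb. Its neighbour Hoxc11 (ENSMUSG00000001656, chromosome 15, 102954427 to 102957708) had a mean normalized count of 479 and 237 per kb. No other Hox gene lies between them, and their starts are 12.4 kb apart. Hoxc4, the lowest-numbered gene of its cluster (ENSMUSG00000075394, chromosome 15, 103018934 to 103036852), had a mean normalized count of 375 and 146 per kb. Hoxc6, a gene of thoracic levels (ENSMUSG00000001661, chromosome 15, 102998257 to 103011881), was at 266 and 111 per kb. Hoxc5 lies between Hoxc4 and Hoxc6 in number, and Hoxc8 and Hoxc9 between Hoxc6 and Hoxc10. None of these was listed.

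In HoxA, Hoxa9, known for its part in blood progenitors and leukaemia as well as in axial patterning (ENSMUSG00000038227, chromosome 6, 52223100 to 52231089), had a mean normalized count of 620 and 111 per kb, within 1.01-fold of Hoxc6. Hoxa11, a gene of the forearm and lower leg segments of the limb (ENSMUSG00000038210, chromosome 6, 52242106 to 52245810), was at 201 and 87.8 per kb. The largest step in the order of levels came after it, a 7.11-fold gap to Hoxa2. Hoxa2, a hindbrain and neural crest gene (ENSMUSG00000014704, chromosome 6, 52162417 to 52164831), was at 21.9 and 12.3 per kb. Hoxa13, the gene of the hand and foot end of the limb (ENSMUSG00000038203, chromosome 6, 52257694 to 52260880), was at 19.4 and 7.85 per kb. The Hox gene with a row in every table was thus one of the weakly expressed ones, 11.2-fold below its neighbour Hoxa11, whose start is 15.1 kb away. Hoxa10, which lies between Hoxa9 and Hoxa11, was not listed.

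The 3 HoxB genes with a value were at low levels. Hoxb6 (ENSMUSG00000000690, chromosome 11, 96292476 to 96301569) had a mean normalized count of 15.3 and 7.80 per kb, Hoxb5 (ENSMUSG00000038700, chromosome 11, 96303336 to 96306121) 8.09 and 2.90 per kb, and Hoxb9 (ENSMUSG00000020875, chromosome 11, 96271457 to 96276595) 6.86 and 2.66 per kb. Hoxb5 and Hoxb6 are next to each other, 10.9 kb from start to start, whereas Hoxb7 and Hoxb8 lie between Hoxb6 and Hoxb9 and were not listed. So the 4 Hox genes listed for METTL14 had mean normalized counts between 6.86 and 19.4. Counts of this size leave little precision.

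**Figure D3:**
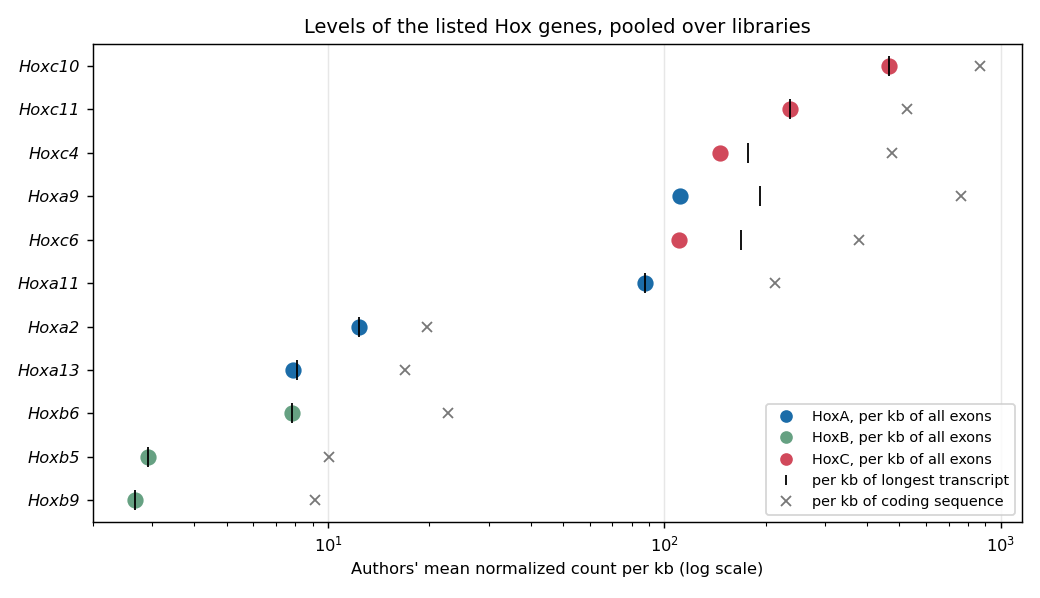
Points give the authors' mean normalized count per kb on a log axis for the 11 listed Hox genes, coloured by cluster and divided by the length of all exons; bars and crosses show the same counts per kb of the longest transcript and of the coding sequence. Hoxc10 is highest and Hoxb9 lowest with each length, and a gap separates Hoxa11 from Hoxa2. The values are pooled over libraries and have no error bars.

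Against all 9260 listed protein-coding genes with a length, the Hox genes ran from the bottom to the upper part of the range. The median level was 87.8 per kb for the Hox genes (lowest 2.66, highest 467) and 115 for all listed genes (interquartile range 39.2 to 273). Hoxc10 was above 86.0% of the listed genes and Hoxc11 above 71.3%. Hoxc4, Hoxa9, Hoxc6 and Hoxa11 lay above 57.7%, 49.0%, 48.9% and 42.3%, near the middle. Hoxa2, Hoxa13 and Hoxb6 were above 12.6%, 9.51% and 9.46%, and Hoxb5 and Hoxb9 above 4.27% and 3.96%. The 3 listed HoxB genes, Hoxa2 and Hoxa13 were thus among the lowest genes in the tables.

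**Figure D4:**
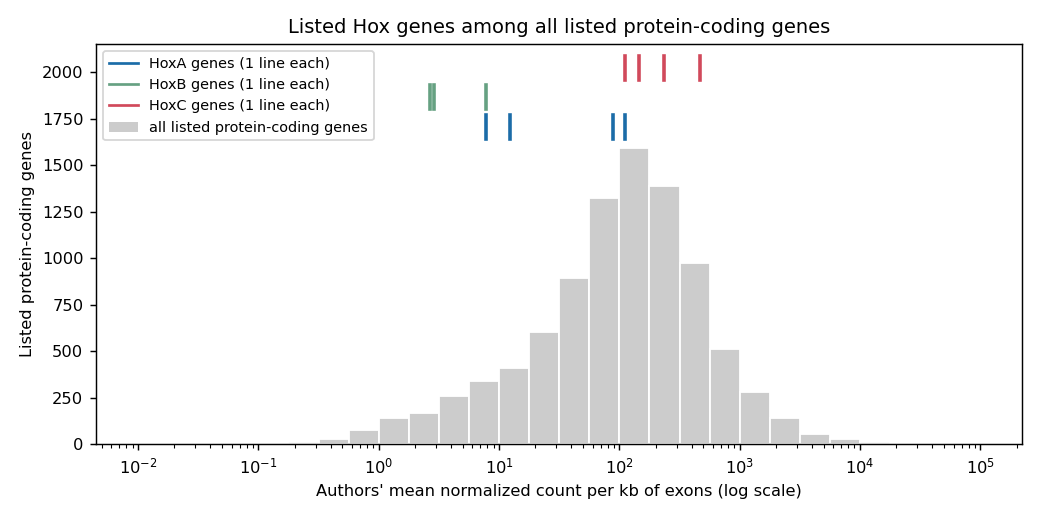
Grey bars count listed protein-coding genes with a length by level, in mean normalized count per kb of exons on a log axis. Of the 9260 such genes, 4 lay outside the range of the bars and are not counted. Coloured lines above the bars mark the 11 listed Hox genes by cluster. HoxC genes lie in the middle and upper part of the distribution, the 3 listed HoxB genes in its lower tail, and HoxA genes in both.

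Some counts could hold reads of other genes, or lack reads of their own gene, because exons overlap. How reads in an overlap were assigned is not given in the sources used here. Of the exons of Hoxa11, 35.0% (800 bases) overlap Hoxa11os, a noncoding gene on the opposite strand. Hoxa11os had a mean normalized count of 106 and 34.5 per kb and was listed for METTL3, as Hoxa11 was. Whether reads were counted by strand is not given in the sources used here, so reads of the 2 genes cannot be told apart in the overlap. Hoxa2 shares 15.0% of its exonic bases with the gene model Gm28308, Hoxc10 8.70% with Hoxc5, Hoxb5 3.59% with the antisense gene Hoxb5os and Hoxa9 1.52% with the microRNA gene Mir196b. The other 6 listed Hox genes share no exonic base with another annotated gene.

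Of 11 annotated noncoding genes chosen by name, as Hox or as a known RNA of the clusters, 4 were listed, 3 for D4, 1 for METTL3 and 0 for METTL14. Other noncoding genes that overlap Hox exons, such as Gm29430, Gm28309 and Mir196b, were not among those chosen. Of all 33499 genes annotated as other than protein-coding, expressed in these cells or not, 3.02% were listed for D4, 0.122% for METTL3 and 0.0687% for METTL14. Hotair, a noncoding RNA of the HoxC cluster (chromosome 15), was at 83.3 and 41.5 per kb, and Hoxaas2 (chromosome 6) at 25.7 and 7.64 per kb. Halr1 (chromosome 6) was at 4.21 and 4.30 per kb. These 3 were listed for D4 only, and Hoxa11os for METTL3 only. Per kb Hotair was the highest of the 4, whereas by mean normalized count, with no division by length, Hoxa11os was.

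The levels of other genes that act with or on Hox genes were read from the same column. Of 9 genes for TALE cofactors, 6 were listed for D4 (among them Meis1, Meis2 and Pknox2), 1 for METTL3 (Pknox2) and 1 for METTL14 (Meis2), beside the same backgrounds of 40.1%, 7.80% and 4.91%. Meis2 was at 77.4 per kb, Meis1 at 32.9 and Pknox2 at 12.6. Polycomb proteins, which keep Hox genes silent, and trithorax proteins, which keep them active, formed a list of 19 genes. Of these, 15 were listed for D4 and 0 for METTL3 or METTL14, beside the same backgrounds of 40.1%, 7.80% and 4.91%. The contrast between the comparisons was not tested. The listed ones had a median level of 134 per kb, with Bmi1 the highest at 402 and Ezh2, the histone H3 lysine 27 methyltransferase, at 134. None of 8 related homeobox genes outside the series of Hox numbers (Evx1, Evx2, Cdx1, Cdx2, Cdx4, Gsx1, Gsx2 and Pdx1) was listed in any table. The share of all protein-coding genes listed in any table was 42.2%.

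Other protein-coding genes inside the clusters or within 500 kb of either end were also counted, 53 in all, and were chosen for this after the values had been seen. Of these, 49.1% were listed for D4 (26 genes), beside the background of 40.1%, 9.43% for METTL3 (5 genes), beside 7.80%, and 11.3% for METTL14 (6 genes), beside 4.91%. For D4 these were 2 of 6 around HoxA, 9 of 18 around HoxB, 13 of 25 around HoxC and 2 of 4 around HoxD. Around HoxA and HoxD no neighbour was listed for METTL3 or METTL14. HoxB had 1 listed neighbour for each of them, and HoxC had 4 for METTL3 and 5 for METTL14. HoxD, none of whose own genes was listed, lay beside Lnpk and Mtx2, which were listed for D4. None of these differences was tested.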

How the data were processed

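The authors aligned RNA-seq reads to GRCm38 with hisat2, obtained counts per gene with featureCounts (Ensembl annotation, version 102) and ran DESeq2; program versions are not given in the sources used here. The deposited mean normalized count is a signal that the authors averaged over libraries after division by size factors. The remaining value columns of the deposited tables hold the authors' own comparison (log2 fold change, its standard error, Wald statistic, p-value and adjusted p-value) and were not used. The files hold no value per library, so depth per library is unknown from them, no count model was fitted, and no p-value, SD or interval could be given. Where GEO's text field and title disagreed on day, the title was used.

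Genes were matched by Ensembl identifier to GENCODE M21 on GRCm38, the same build but another annotation release than the one counted on; 10282 of the 10289 listed identifiers were found, and 9260 listed protein-coding genes had a length. The mean normalized count was divided by the length of the union of a gene's annotated exons, in kb. Shares of listed genes were taken over the 21951 annotated protein-coding genes, because the number of genes tested is not a column of the files. This background includes genes that C2C12 cells do not express. The procedure for exon lengths and overlaps was tested on simulated intervals.

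All listed Hox genes are named, and lists of TALE, Polycomb and trithorax, ParaHox and noncoding Hox cluster genes and of cell type markers were described by counts. The counts include genes that are not reported here by name. The members and lists were chosen with earlier results of these data known. The genes around the clusters and the promoter motifs were chosen after the values had been seen. Alternatives were minimum mean normalized counts of 10 and 100, the longest transcript or coding sequence as length, the genes of the D4 table alone, and noncoding genes added. The shares of the summed level by cluster under other lengths were added after seeing the data. Calculations used Python 3.11.15, pandas 2.3.3 and NumPy 2.4.6, and plots matplotlib 3.10.9.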

Additional observations from a re-analysis of the deposited data

How the results depend on the processing

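A minimum mean normalized count of 10 left 9 Hox genes for D4 and 2 for METTL3, moved METTL14 from 4 to 2 and moved HoxB from 3 listed genes to 1. A minimum of 100 left 6 Hox genes for D4, 1 for METTL3 (Hoxa11) and 0 for METTL14. The share of Hox genes in the METTL14 table thus rests on genes with low counts. Shares of all protein-coding genes at these minimums were not computed. Whether such falls are particular to Hox genes is therefore unknown. Adding the noncoding genes chosen by name gave 13 for D4, 3 for METTL3 and 4 for METTL14. The median level of the listed Hox genes was 87.8 per kb of exons or of the longest transcript, 99.2 in the genes of the D4 table, 111 with a minimum count of 10 and 214 per kb of coding sequence, where the shorter length raises every value. Hoxc10 stayed highest and Hoxb9 lowest with each length, but Hoxa9, at 762 per kb of coding sequence and 192 per kb of longest transcript, moved above Hoxc4 with both and above Hoxc11 with the coding sequence. In an alternative chosen after seeing the data, the HoxA share of the summed level moved from 18.4% to 22.0% per kb of longest transcript and 30.7% per kb of coding sequence. No paired analysis was possible because the tables hold no value per library, and for the same reason no library could be left out in turn.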
